A study of Apis mellifera with 4 samples.

Results

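Of the 11156 genes in the honeybee gene table, 8586 carry only a LOC number as their name, which is a provisional label for a gene without a symbol. The genes described here are the 79 LOC genes that the table lists with a single exon and an exon length above 0, and that had at least 10 exon reads summed over the 4 samples. Before the read minimum there were 147 such single-exon genes. The table holds counts per gene, and each of the 79 genes has 1 annotated transcript. They were set beside 6168 other LOC genes that have more than 1 exon and at least 10 reads.

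The samples were whole larvae of Apis mellifera, the western honeybee, collected at 60 hours of larval development, from larvae raised as queens (2 samples) or as workers (2 samples). Queen larvae had been moved after hatching from worker cells into queen cells in a hive without a queen, where larvae are fed royal jelly, and worker larvae stayed ungrafted in their own cells in another hive. Caste, grafting and hive therefore cannot be told apart. Each sample was a separate pool of larvae, and neither a treatment nor an altered gene was involved. The sequenced reads on exons came to 5219511 and 4949093 for queens, against 5476218 and 5243286 for workers.

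Most insect genes are split into several exons, which splicing joins into the mature mRNA. Genes with a single exon need no splicing. In animals they include most replication-dependent histone genes, many heat shock genes, and retrocopies, which arise when a spliced mRNA is copied back into the genome. A read on a single-exon gene crosses no splice junction, so that mRNA, unspliced RNA and genomic DNA give reads that look alike. Accordingly, 0 of the 79 genes had a read that crossed an exon-exon junction, and what part of their reads came from mature mRNA was not tested. RefSeq lists 62 of the 79 genes in a later assembly (78.5%, against 88.0% of the other LOC genes), 61 of them as protein-coding and LOC724818 as a pseudogene. No product or role is given for these genes in that table, so none is named here, except that the study's supplement matches LOC551815 to the Drosophila gene CG12128. The study sought Drosophila matches for genes it found to differ between the castes, so the other genes may have matches that are not given.

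Many single-exon gene models had no reads at 60 hours. Among the 147 LOC genes with a single exon, 53 (36.1%) had exactly 0 reads in all samples, and 15 had between 1 and 9. A count of 0 can still arise where up to 3 reads would be expected. Among the 7385 LOC genes with more than 1 exon, 361 (4.89%) had 0 reads. Thus 53.7% of the single-exon genes and 83.5% of the others had at least 10 reads. Of the 53 single-exon genes with 0 reads, 47 (88.7%) have no entry in RefSeq, against 54.6% of the 361 genes with more exons and 0 reads. At the read minimum, the genes just inside were LOC412378 and LOC725415 with 14 reads each, and the genes just outside were LOC725450 and LOC725965 with 8 reads each.

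The single-exon genes had a lower median level than the other LOC genes. Their level is given as RPKM, the reads per kilobase of exon scaled to the read total of its sample, averaged over the 4 samples. The median RPKM of the 79 genes was 7.49 (quartiles 3.0 and 15.3), against 11.2 (quartiles 3.89 and 27.5) for the other LOC genes. Their exon length, summed over all exons of a gene, was also shorter, with a median of 1219 bases against 1895 bases. The length of single exons was not compared. Their median total was 197 reads against 541 reads. An RPKM of 100 or more was reached by 3 of the 79 genes (3.80%, against 5.89% of the other LOC genes) and 8 were below 1 (10.1%, against 9.29%). The quartiles of the 2 sets overlap widely in RPKM.

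A few genes held a large part of the reads. The 79 genes took 0.301% and 0.286% of all exon reads in the queen samples, against 0.299% and 0.332% in the worker samples. LOC100579019 alone gave 27.6% of these reads, and the 3 genes with the most reads, which are LOC100579019, LOC726804 and LOC724488, gave 49.8%. Without LOC100579019 the share was 0.258% and 0.239% in the queen samples, against 0.189% and 0.198% in the worker samples, so that the summed share of the remaining 78 genes was higher in the queen samples. These shares are of all reads, without the library scaling used below. On unscaled totals the median of all tested genes also lay higher in queens, by 0.55 on a log2 scale. The direction of the summed share therefore depends on the scaling, and it was not computed on the scale used below.

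To compare the castes, exon reads were tested with the quasi-likelihood test of edgeR, and p-values were adjusted by the Benjamini-Hochberg method over all 7833 genes that passed its filter on low counts. Libraries were scaled with TMM factors, which came to 1.21 and 1.20 in queens, against 0.828 and 0.830 in workers. These factors are unequal between the castes, and a gene with the same RPKM in both castes therefore has a negative log2 fold change. Fold changes are queens over workers, and genes with an adjusted p below 0.05 were called. With library totals in place of the factors, the log2 fold change of the median tested gene moved to 0.55, against 0.01, and every direction given below is relative to the TMM scale. Whole larvae were sampled, so that fewer cells of a type and less RNA per cell cannot be told apart.

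Of the 79 single-exon genes, 69 were tested, each with at least 39 reads, and the 10 untested genes had between 14 and 35 reads. Among the 69, 3 genes (4.35%) were called towards queens, beside a background of 6.32% over all genes, and 8 (11.6%) were called higher in workers, beside 12.0%. At an adjusted p below 0.01 the numbers were 1 and 4, beside backgrounds of 0.983% and 4.86%. Together the 11 called genes made up 15.9% of those tested, close to the 18.3% of all tested genes. Without adjustment, 25 of the 69 had p below 0.05 in the same edgeR test. The share of all genes at that threshold was not counted, so this number shows nothing particular to the single-exon genes. With library totals, 28 were called higher in queens and 4 in workers, against a background of 47.3% and 6.20% of all genes. With totals that left out the 10 most abundant genes, 12 were called higher in queens and 7 in workers, beside 18.2% and 8.29% of all genes.

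The shares of called genes also lay near those of other LOC genes of like abundance. Of the single-exon genes 4.35% were called towards queens, against 4.33% of the other LOC genes when reweighted to the same read totals, and 11.6% were called towards workers, against 9.23%. With bins of RPKM in place of reads, the shares of the other LOC genes were 5.11% and 10.8%. The difference in the share called in either direction was 2.38 percentage points with bins of reads and 0.03 points with bins of RPKM. Among 32 tested single-exon genes that do have a symbol, 7 (21.9%) were called higher in queens and 4 (12.5%) higher in workers. Whether that queen share differs from the unnamed genes was not tested.

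**Figure D1:**
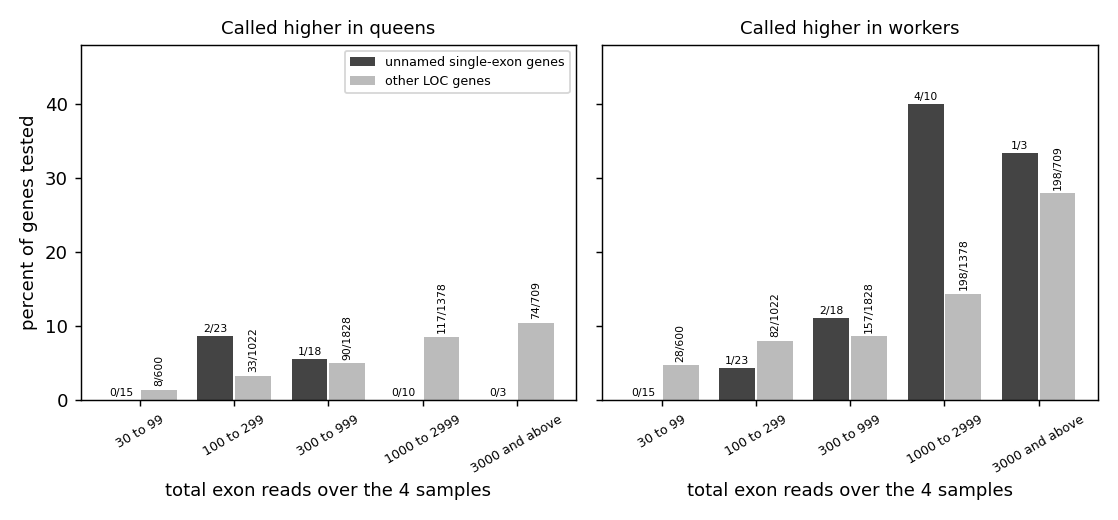
Percent of tested genes called higher in queens (left) and higher in workers (right), by total exon reads over the 4 samples. Dark bars are the unnamed single-exon genes and light bars the other LOC genes, with the genes called over the genes tested written above each bar; from 1000 up to 3000 reads 4 of 10 single-exon genes were called higher in workers, against 14.4% of the other LOC genes.

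Within the bins, no single-exon gene with fewer than 100 reads was called. From 100 up to 300 reads, 2 of 23 genes were called higher in queens and 1 higher in workers, against 3.23% and 8.02% of the other LOC genes. Of the 18 genes with 300 up to 1000 reads, 1 was called higher in queens and 2 higher in workers, against 4.92% and 8.59%. In the bin of 1000 up to 3000 reads, 0 of 10 were called higher in queens and 4 higher in workers, against 8.49% and 14.4%. The 3 genes with more reads held 1 call, higher in workers, against 10.4% and 27.9% of the other LOC genes. Thus all calls towards queens fell on genes below 1000 reads, and 5 of the 8 calls towards workers on genes above. The bins hold few single-exon genes, and a difference between bins was not tested.

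The sizes of the caste differences were also set beside those of other LOC genes of like read totals. The median log2 fold change of the 69 tested genes was 0.11, against 0.00 for the other LOC genes and 0.01 for all genes, and 37 of the 69 values were above 0. The median absolute log2 fold change was 0.44, against 0.39 for the other LOC genes reweighted to the same read totals, a gap that was not tested. By bin it was 0.51 against 0.55 from 30 up to 100 reads, 0.54 against 0.41 up to 300, 0.39 against 0.29 up to 1000, 0.54 against 0.29 up to 3000 and 0.30 against 0.36 above that. Changes above 1 in absolute log2 fold change were seen in 15 of the 69 genes (21.7%), against 13.3% of the other LOC genes without reweighting. The TMM-scaled samples of the castes did not overlap in 23 genes with higher values in queens and in 21 with higher values in workers, near the 31.7% and 32.1% of all tested genes.

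Samples of the same caste differed most among the genes with few reads. The median absolute log2 ratio between the queen samples was 0.62 for the single-exon genes with 30 up to 100 reads, against 0.42 for the other LOC genes, and between the worker samples it was 0.59 against 0.45. From 100 up to 300 reads it was 0.36 against 0.26 in queens and 0.26 against 0.32 in workers. From 300 up to 1000 reads it was 0.19 against 0.17 in queens and 0.16 against 0.22 in workers. In queens it was 0.14 against 0.11 from 1000 up to 3000 reads and 0.14 against 0.096 above that. Between the queen samples the spread of the single-exon genes was thus above that of the other LOC genes in every bin. Between the worker samples it was above in some bins and below in others. These gaps were not tested.

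**Figure D2:**
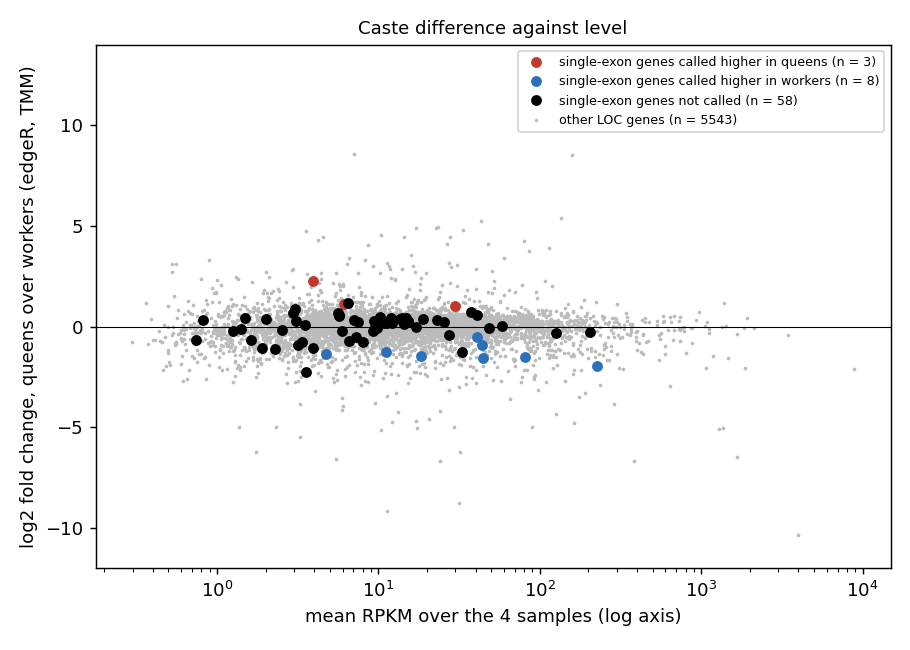
Log2 fold change (queens over workers, edgeR with TMM factors) against the mean RPKM of the 4 samples on a log axis. Large points are the 69 tested single-exon genes (red, 3 called higher in queens; blue, 8 called higher in workers; black, 58 not called) and small grey points are the other LOC genes; the called single-exon genes lie between log2 fold changes of -1.98 and 2.29.

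The 3 genes called higher in queens were LOC724465, LOC100578704 and LOC411856. Their mean RPKM ran from 3.92 to 29.97, and their log2 fold changes from 1.02 to 2.29. In each of them both queen samples were above both worker samples.

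LOC724465, on scaffold NW_003377936:272976-275530 of Amel_4.5 (positions are those of the listed region, flanks included), had 69 and 60 reads in queens, against 10 and 9 in workers. Its RPKM was 6.85 ± 0.44 in queens and 0.976 ± 0.060 in workers (SD, n = 2 each). The log2 fold change was 2.29 (SE, the standard error, 0.29; adjusted p = 0.0077 in the quasi-likelihood test of edgeR with Benjamini-Hochberg adjustment), the largest towards queens among the 69 tested genes. Every read on it matched a single place in the genome.

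LOC411856 (NW_003378056:1015890-1018108) was the most abundant of the 3, at 44.6 ± 0.69 RPKM in queens and 15.3 ± 1.31 RPKM in workers (SD, n = 2 each). Queen samples had 333 and 324 reads on it, against 111 and 123 in worker samples, which gave a log2 fold change of 1.02 (SE 0.15, adjusted p = 0.011 in the same edgeR test). LOC100578704 (NW_003378077:1559150-1561692) had 86 and 87 reads in queen samples, against 32 and 26 in worker samples. Its log2 fold change was 1.11 (SE 0.23, adjusted p = 0.031 in the same edgeR test). The samples of a caste lay close together in both genes, with at most a 1.17-fold gap after TMM scaling.

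**Figure D3:**
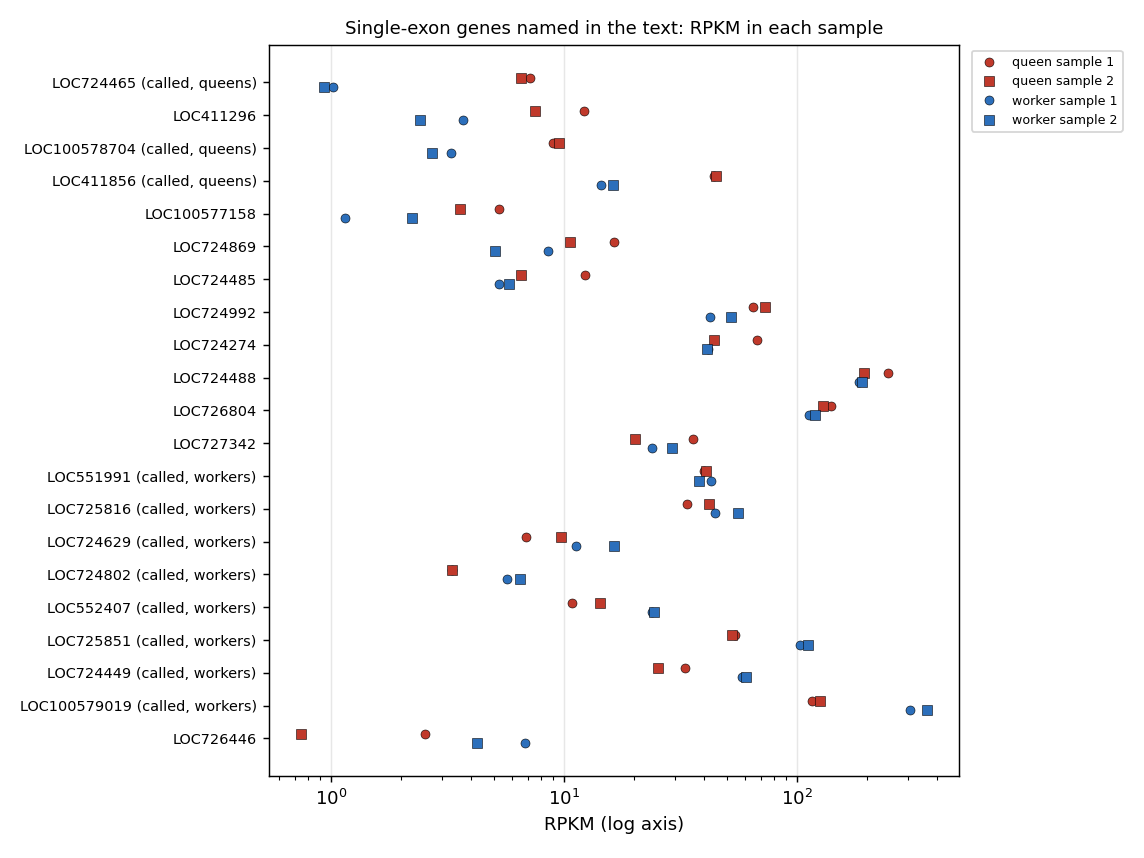
RPKM in each sample, on a log axis, of the 21 single-exon genes named under a fixed rule, from the highest log2 fold change towards queens (top) to the highest towards workers (bottom). Red marks are queen samples and blue marks worker samples, with circles for sample 1 and squares for sample 2; LOC724465 lies at 7.16 and 6.54 in queens and 1.02 and 0.933 in workers, while LOC551991 is called higher in workers although its RPKM values overlap.

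The 8 genes called higher in workers were more abundant, with a median RPKM of 42.3, against 6.14 for the 3 called higher in queens. Of the 8, 6 differed by at least 2-fold on the TMM scale, and the range was 1.43-fold to 3.94-fold.

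LOC100579019, on scaffold NW_003378058:719603-723711, was the most abundant of all 79 genes. Queen samples had 2242 and 2308 reads on it, against 5992 and 7001 in worker samples. Its RPKM was 121 ± 6.69 in queens and 334 ± 41.0 in workers (SD, n = 2 each), and its log2 fold change was -1.98 (SE 0.13, adjusted p = 0.0012 in the same edgeR test). The reads of this gene were unevenly placed along its exon, as given below.

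LOC724449 (NW_003377965:36118-38255) had 234 and 171 reads in queen samples, against 420 and 428 in worker samples. Its log2 fold change was -1.54 (SE 0.16, adjusted p = 0.0041 in the same edgeR test). LOC725851 had 342 and 317 reads in queen samples, against 667 and 708 in worker samples, with a log2 fold change of -1.53 (SE 0.11, adjusted p = 0.0015 in the same edgeR test). This gene fills a scaffold of its own (NW_003383271:1-1027), and 0 of its 2034 reads matched a single place, so that its values are uncertain. LOC552407 (NW_003378275:76697-79189) had 100 and 126 reads in queen samples, against 225 in each worker sample, and a log2 fold change of -1.45 (SE 0.19, adjusted p = 0.0082 in the same edgeR test). In these 3 genes each worker sample had more reads than either queen sample.

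LOC724802 (NW_003378092:1554317-1556287) was the least abundant of the 8, with 20 and 19 reads in queens, against 35 and 39 in workers. The difference was -1.38 in log2 fold change (SE 0.29, adjusted p = 0.033 in the same edgeR test), and 69.9% of its reads matched a single place. LOC724629 (NW_003378128:815823-818785) had 84 and 113 reads in queen samples, against 140 and 200 in worker samples, with a log2 fold change of -1.25 (SE 0.28, adjusted p = 0.038 in the same edgeR test). LOC725816 (NW_003378020:58840-61488) had 345 and 407 reads in queen samples, against 463 and 574 in worker samples, and a log2 fold change of -0.93 (SE 0.18, adjusted p = 0.027 in the same edgeR test). In the last 2 genes, samples of the same caste differed by 1.26-fold to 1.48-fold after TMM scaling.

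LOC551991 (NW_003377938:1542598-1545328) was called higher in workers with TMM factors but not with library totals. Its RPKM was 40.5 ± 0.60 in queens and 40.5 ± 3.40 in workers (SD, n = 2 each), and the single RPKM values of the castes overlap. The log2 fold change was -0.51 with TMM factors (SE 0.11, adjusted p = 0.035 in the same edgeR test) and 0.03 with library totals. Its call thus depends on the scaling of the libraries. The 7 other genes called higher in workers and the 3 called higher in queens had the same direction with library totals, where 4 of the 8 and 3 of the 3 were called.

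Several calls rested on having both samples of a caste. Without worker sample 1, 0 of the 3 genes called higher in queens and 3 of the 8 called higher in workers were still called, and without worker sample 2 the numbers were 0 and 2. Without queen sample 1, 3 and 6 were still called, and without queen sample 2, 2 and 6. LOC100579019 and LOC725851 were called in all 4 of these fits, in which the lone sample of a caste is assumed to vary like the other caste. Calls over all genes were also fewer, with 106 higher in queens and 359 in workers without worker sample 1, and 44 and 254 without worker sample 2, against 495 and 942 with all 4 samples.

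The other abundant genes were not called with TMM factors. LOC726804 (NW_003377886:79826-83995) had 2757 and 2412 reads in queen samples, against 2252 and 2347 in worker samples. Its RPKM was 135 ± 8.05 in queens and 116 ± 4.88 in workers (SD, n = 2 each), whereas its log2 fold change on the TMM scale was -0.30 (SE 0.10, adjusted p = 0.097 in the same edgeR test) and 0.24 with library totals. LOC724488 (NW_003377965:39655-41523) had an RPKM of 248 and 195 in queens, against 186 and 190 in workers, and a log2 fold change of -0.28 (SE 0.14), which was 0.26 with library totals. LOC724992 (NW_003377946:472085-474068) had an RPKM of 65.1 and 72.7 in queens, against 42.5 and 52.0 in workers, with a log2 fold change of 0.03 (SE 0.16). With library totals its value was 0.57, and it was then called higher in queens, as it was in limma. In all 3 genes the queen samples had the higher RPKM, and the sign of the difference changed with the scaling in the first 2. LOC551815, which the study's supplement matches to CG12128, had 232 and 233 reads in queens, against 120 and 129 in workers. It was not called (log2 fold change 0.44, SE 0.15, adjusted p = 0.11 in the same edgeR test).

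The queen samples differed from each other in a few genes. Of the 54 genes with at least 100 reads, 5 differed by 1.5-fold or more between the queen samples, and all 5 were higher in queen sample 1. The same count was not made over other genes, so whether this lean is particular to the single-exon genes was not tested. LOC726446 (NW_003377856:1015730-1017872) had 18 and 5 reads in queen samples, against 49 and 30 in worker samples. Its log2 fold change of -2.24 (SE 0.57, adjusted p = 0.051 in the same edgeR test) was the lowest among the 69 tested genes and was not called. LOC724485 had 89 and 45 reads in the queen samples, against 39 and 42 in the worker samples, so that queen sample 1 stood above the other 3 samples. LOC727342 had 222 and 119 reads in the queen samples, against 151 and 180 in the worker samples, and only 34.8% of its reads matched a single place. LOC411296 had 116 and 68 reads in the queen samples, against 36 and 23 in the worker samples, with a log2 fold change of 1.17 (SE 0.35, adjusted p = 0.076 in the same edgeR test). The other gene of the 5 was LOC724274, with an RPKM of 67.3 and 44.0 in queens, against 41.8 and 41.2 in workers.

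The Osiris genes, an insect family with bursts of expression around the larval moult, split the samples of both castes. The summed RPKM of the 6 Osiris genes with at least 10 reads was 2378 in queen sample 1 and 362 in queen sample 2. In worker samples 1 and 2 it was 41.7 and 5.54. Of the 6 genes, 6 were higher in queen sample 1 than in queen sample 2. Each was also higher in worker sample 1 than in worker sample 2, where reads were few. Whether this split has a part in the differences between the queen samples in the single-exon genes was not tested. Among the same 54 genes, the largest ratios between the worker samples were those of LOC100577158, with 85 and 55 reads in queens against 19 and 36 in workers, and LOC724869, with 58 and 36 reads in queens against 31 and 18 in workers. Neither gene was called. Over the 54 genes the median ratio was 1.15 between the queen samples and 1.15 between the worker samples, against 1.11 and 1.15 for the other LOC genes with at least 100 reads.

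Reads that were not counted as matching a single place set a limit for some of the genes. All reads matched a single place in 45 of the 79 genes (57.0%, against 47.6% of the other LOC genes). At the other end, fewer than 50% of the reads did so in 13 genes (16.5%, against 9.14%), and 0 in 6 genes (7.59%, against 1.04%). The single-exon genes thus lay more often at both extremes than the other LOC genes, a difference that was not tested. Among genes that do not lie inside another gene, 1 of 74 (1.35%) had 0 single-match reads, against 43 of 5893 (0.73%) of the other LOC genes. With single-match reads only, 3 genes were called higher in queens and 6 higher in workers among 61 tested, beside backgrounds of 6.24% and 11.8%. The lost worker calls were LOC725851, which had no such reads, and LOC724802.

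Of the 6 genes with 0 single-match reads, 5 lie wholly inside the listed span of another gene. These are LOC410203, LOC412378, LOC724485, LOC726446 and LOC726447, and they are all of the 79 genes in such a place. How reads that fall in 2 listed genes were counted, and on which strand, is not given in the sources used here, so that reads of the single-exon gene and its host cannot be told apart. Among the other LOC genes, 275 lie inside another gene, with a median of 49.6% single-match reads, against 99.98% for the 5893 that do not. LOC726446 and LOC410203 lie inside genes listed with an exon length of 0 and no exon reads. LOC724485 lies inside LOC412476, a gene with 11 exons and 31, 31, 31 and 30 reads in the 4 samples, whereas LOC724485 itself had 215 reads in all. Over the 74 genes outside other genes, the calls were the same 3 higher in queens and 8 higher in workers.

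The deposited table also counts reads beyond the exon. For 74 of the 79 genes the listed region is the exon length plus 1000 bases, taken here as 500 bases on each side. Reads in these flanks were 4.55% of all reads in the regions, with a median of 1.63% per gene. They were below 1% in 38 genes and 20% or more in 16. The highest shares were 59.3% in LOC726491, 58.4% in LOC725308 and 55.9% in LOC727176, which means that for these genes more reads fell beside the listed exon than on it. Of the 11 called genes, the highest flank share was 10.8%, that of LOC551991.

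The depth along the exon set LOC100579019 apart from the other abundant genes. The table gives the read depth at the median base of the exon, which for LOC100579019 was 2 and 2 in the queen samples, against 3 and 4 in the worker samples, with 17543 reads over 3109 bases. LOC726804, with 9768 reads over 3170 bases, had a median depth of 34 and 31 in the queen samples, against 26 and 27 in the worker samples. Reads per 100 bases divided by the summed median depth came to 51.3 for LOC100579019 and to between 1.74 and 5.24 for the other 12 genes with at least 1000 reads. Nearly all coverage of LOC100579019 therefore lay on the bases read more deeply than its median base. Among 2087 other LOC genes with at least 1000 reads the median ratio was 2.57, the 95th percentile was 7.61, and 8 were at or above the ratio of LOC100579019. The RPKM of this gene, which divides by the whole exon, therefore does not give the level along most of its length.

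**Figure D4:**
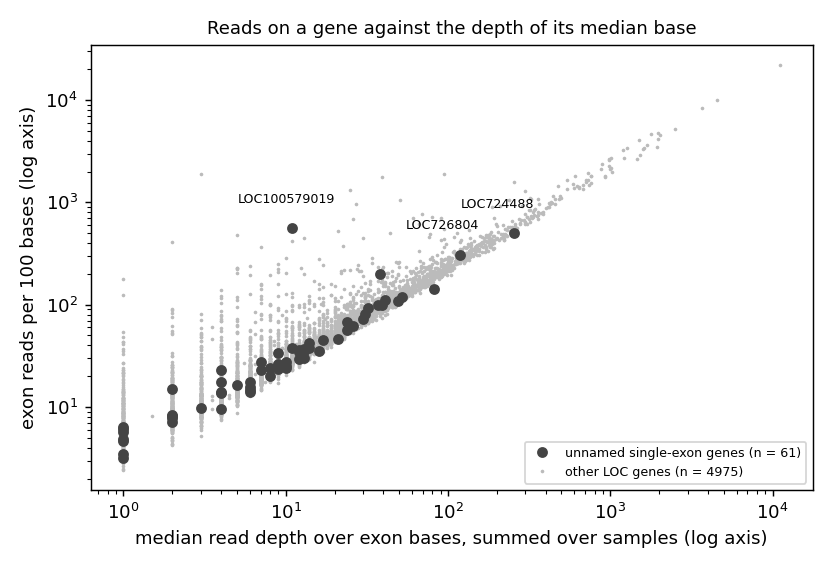
Exon reads per 100 bases against the read depth at the median exon base, both summed over the 4 samples and on log axes, for genes with a median depth above 0. Dark points are 61 unnamed single-exon genes and grey points 4975 other LOC genes; LOC100579019 lies far above the line along which most genes fall, with 564 reads per 100 bases at a summed median depth of 11.

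Some of the single-exon genes lie side by side. With neighbours taken as single-exon genes at most 5000 bases apart, a distance set after the data had been seen, 17 of the 79 genes form 5 groups. The largest holds 6 genes at NW_003377965:22616-41523, where 9 genes of the table lie in all. These are LOC724231, LOC724274, LOC724367, LOC724405, LOC724449 and LOC724488. Their mean RPKM ran from 0.384 for LOC724405 to 205 for LOC724488, which are among the lowest and the highest of all 79 genes. LOC724405 had 0 and 2 reads in the queen samples, against 6 and 8 in worker samples, too few for the test. The log2 fold changes of the 5 tested genes were all below 0, from -1.54 to -0.09, and LOC724449 was the only gene called. With library totals the values were 0.0022 for LOC724231, 0.45 for LOC724274 and 0.26 for LOC724488, and those of LOC724367 and LOC724449 were below 0.

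In the other groups the levels differed less. The 4 genes at NW_003378169:1322512-1330906, which are LOC725272, LOC725308, LOC725344 and LOC725238, had log2 fold changes from -0.07 to 0.70 and a mean RPKM from 5.70 to 37.6. Only 33.5% of the reads of LOC725344 matched a single place. The 3 genes at NW_003378114:439337-446009, LOC724757, LOC724818 and LOC724869, had log2 fold changes from 0.38 to 0.69. None of these 7 genes was called. LOC550789 and LOC725816, at NW_003378020:57410-61488, had log2 fold changes of 0.24 and -0.93 and thus differed in direction. The last group, LOC724678 and LOC724633 at NW_003378135:27635-31192, had values of 0.11 and -0.23, with neither called.

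**Figure D5:**
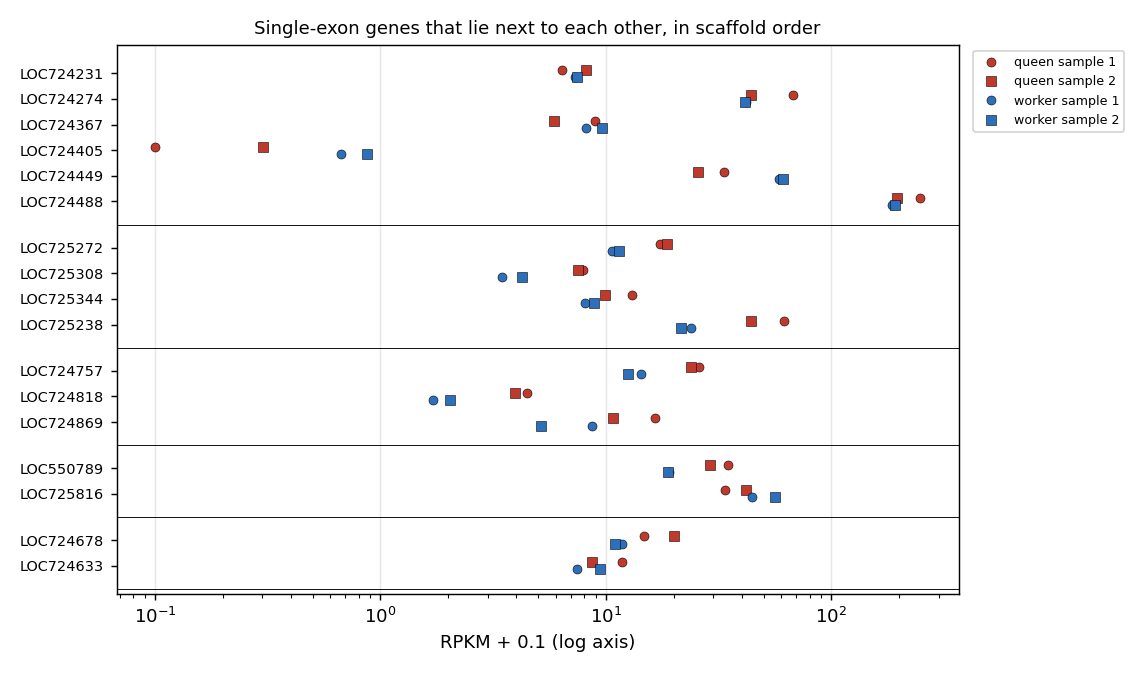
RPKM plus 0.1 in each sample, on a log axis, of the 17 single-exon genes that lie within 5000 bases of another, in scaffold order and with a line between groups. Red marks are queen samples and blue marks worker samples; in the top group LOC724405 and LOC724488 have a mean RPKM of 0.384 and 205.

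The caste difference of a single-exon gene was also set beside that of its nearest gene of any kind. A gene lay within 1000 bases of 44 of the 79 genes. For 32 tested genes the nearest gene lay that near and was itself tested. Of these pairs, 16 had the same sign of log2 fold change. Pearson's r across the 32 pairs was 0.06, given as a description over pairs that share the same 4 libraries. Of 19 tested genes whose nearest gene was tested but lay farther away, 10 had the same sign and r was 0.28. Genes whose nearest gene was untested, or that lie alone on a scaffold, were left out of both sets. An example is LOC724274, at a log2 fold change of -0.09, which lies 828 bases from LOC410087, at 2.76.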

How the data were processed

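RNA-seq libraries of 2 queen and 2 worker samples at 60 hours were assigned from their labels. Reads had been mapped by the authors with CLC Genomics Workbench (genome Amel_4.5), who deposited, per gene, counts of total and single-match reads on exons and on the whole gene region, and of junction reads. The authors computed the RPKM from exon reads and exon length. A deposited coverage column gives the median depth over exon bases. The authors' scaled values, fold changes, test statistics and p-values from the Baggerly test, and a further table of transcripts higher in queens, were not used. Exon lengths, exon numbers and positions were taken as the authors deposited them, and strand is not given in the sources used here.

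Total exon reads, those matching several places included, were tested with edgeR 4.0.16 (R 4.3.3; filterByExpr, TMM, quasi-likelihood test, caste only), with Benjamini-Hochberg adjustment over 7833 genes and a threshold of 0.05. The standard error was the absolute log2 fold change over the square root of F. With 2 samples against 2, an exact permutation test cannot go below p = 0.333. Replicates differed beyond sampling noise (chi-square per degree of freedom 21.9 in queens and 10.5 in workers), and p-values reflect the spread between pools of larvae. The tests were tried on simulated counts. Alternatives used DESeq2 1.42.0, limma 3.58.1 on log2 RPKM (pseudocounts 1 and 0.1), other scalings, filters, thresholds and reads, a block for the replicate number, and each sample left out.

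Levels and shares were compared within bins of reads and of RPKM. Named genes were the called genes without overlap between castes (up to 8 in each direction, mean RPKM of at least 3), the 8 with the highest RPKM, and the 4 and 2 with at least 100 reads and the largest ratio between the queen and between the worker samples. The genes and lists were chosen with earlier results of these data known. Lists by annotation words could not be applied, since the table used (RefSeq, Amel_HAv3.1) gives no product text, and promoters were not analysed here. Python 3.11.15, pandas 2.3.3, numpy 2.4.6, scipy 1.17.1 and matplotlib 3.10.9 were used.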

Additional observations from a re-analysis of the deposited data

How the results depend on the processing

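The number of calls changed with the scaling of the libraries and with single samples left out. Calls higher in queens numbered 28 with library totals (47.3% of all genes), 12 with totals that left out the 10 most abundant genes (18.2%), and 28 in limma with pseudocounts of 1 (44.0%) and 0.1 (43.2%), against 3 with TMM factors (6.32%). Calls higher in workers numbered 4 with library totals and 5 with limma on log2(RPKM + 0.1), against 8 (6.20%, 6.06% and 12.0% of all genes). The median log2 fold change was 0.64 with library totals, 0.35 without the 10 most abundant genes, 0.47 with limma on log2(RPKM + 1) and 0.55 on log2(RPKM + 0.1). With an adjusted p below 0.01, 1 gene was called higher in queens and 4 higher in workers (background 0.983% and 4.86%). Leaving out each sample gave 0 to 4 calls higher in queens, 2 to 8 higher in workers and a median between -0.063 and 0.17. The median RPKM was 9.28 in queens and 6.92 in workers, against 7.49 over the 4 samples. It was also higher in queens in the other LOC genes (12.8 against 9.03) and in all genes with at least 10 reads (14.4 against 10.1). The gap is therefore not particular to the single-exon genes. The share called exceeded that of other LOC genes by 2.38 percentage points with read bins, by 0.03 with RPKM bins and by 3.14 without the genes inside another gene.

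Directions turned round with library totals in LOC551991 (0.028), LOC724488 (0.26), LOC726804 (0.24), LOC724274 (0.45) and LOC727342 (0.11). Limma on log2(RPKM + 1) gave these genes 0.0032, 0.22, 0.21, 0.38 and 0.031, and on log2(RPKM + 0.1) 0.0033, 0.23, 0.22, 0.39 and 0.030. Without the 10 most abundant genes LOC724274 was at 0.15. With a sample left out, LOC724485 ran from -0.26 (without queen sample 1) to 0.63, LOC724274 from -0.41 to 0.18 (without queen sample 2), and LOC724992 from -0.12 (without worker sample 1) to 0.20, with -0.058 without queen sample 2. The cause was not tested beyond the scaling itself. With DESeq2, 3 genes were called higher in queens and 8 higher in workers (6.52% and 12.0% of all genes). These included 2 of the 3 and 7 of the 8 genes called with edgeR.

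Samples that share a replicate number did not deviate together across genes (r = -0.06 across 6367 genes). The Osiris genes, however, were higher in sample 1 than in sample 2 in both castes. A correlation over all genes cannot decide whether the numbers pair the samples, since a shared difference may touch few genes. With a replicate block, 5 genes were called higher in queens and 8 higher in workers (5.16% and 10.5% of all genes). Of the genes with 30 up to 100 reads, 0 of 15 were called, against 8 higher in queens and 28 higher in workers among 600 other LOC genes.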
